A study of Mus musculus with 11 samples.

Results

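STAT5A peaks that lie close together on the chromosome were examined in mammary gland of wild-type mice (129SV::FVB/N::C57BL/6 background) at day 6 of pregnancy. Peaks were chosen by their positions in the authors' STAT5A ChIP-seq list. Neighbours separated by no more than 12.5 kb, from edge to edge, were joined into chains, and every peak of a chain of 5 or more on chromosomes 1 to 19 was taken. This gave 282 peaks in 46 chains, out of 8735 peaks on the autosomes and 8822 in the whole list. The peaks belonged to 1 STAT5A library, and the H3K4me3 regions set beside them to 1 library of the same stage and background, both made from whole gland with formaldehyde-fixed chromatin. The labels describe 11 samples, of which the other 9 (input libraries, later stages and RNA) were not used here. With 1 library per assay no value has a replicate check, no test was possible and no p-value is given. Sequencing depth is unknown, and the tissue holds epithelium, fat, stroma and other cells, so peaks of different cell types are pooled.

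STAT5A is a transcription factor that is phosphorylated by the kinase JAK2 when prolactin or growth hormone binds its receptor. It then enters the nucleus and binds DNA at palindromic gamma-interferon-activated (GAS) motifs, and in the mammary gland it is required, with the closely related STAT5B, for the growth of the milk-secreting alveoli in pregnancy and for milk protein gene expression. Close groups of binding sites for such factors are a known arrangement at strongly regulated genes of a tissue, while H3K4me3, trimethylation of lysine 4 on the tail of histone H3, marks promoters of active or poised genes. All positions are in the mouse build mm9 and count from 1. Annotation and sequence of that build were not used here, so no chain is given a gene and no sequence is shown. Chains are named by chromosome and by order along it, so that chr8-B is the second chain along chromosome 8.

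Chains of 5 or more took up little of the genome and were unevenly spread. Of the 46 chains, 25 had exactly 5 peaks, 13 had 6, 4 had 7 and 1 had 8, and the 3 largest had 12, 15 and 16. Chromosomes 8 and 11 carried 7 chains each, chromosome 13 carried 6 and chromosome 1 carried 5. There was no chain of this size on chromosomes 10, 16, 18 and 19, which held 426, 324, 282 and 291 peaks. Chromosomes 8 and 1 held 46 of the 282 peaks each, or 9.13% and 7.74% of their own peaks, against 0.75% on chromosome 2, which had more peaks than any other autosome (664). Because peaks in a chain were selected on position, these numbers describe the members and support nothing further.

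Chains varied widely in length. The span from the first to the last peak ran from 4.44 to 60.97 kb with a median of 23.5 kb, and the 46 spans summed to 1.16 Mb, which is 0.0468% of the autosomes as measured by the last coordinates in the lists. Gaps between neighbouring peaks within chains had a median of 3.85 kb (quartiles 1.73 and 7.36 kb), and 37 of the 236 gaps were under 1 kb. Every peak in the list is 215 bp wide, so most of a span was DNA between peaks. Just inside the limit of 12.5 kb stood gaps of 12.46, 12.41 and 12.35 kb. Just outside it, the shortest distance from a chain to the next peak was 12.86 kb, which separated chr8-B from chr8-C, so that pair nearly formed a single chain. Just below the required size were 69 chains of 4, with 276 peaks.

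**Figure D1:**
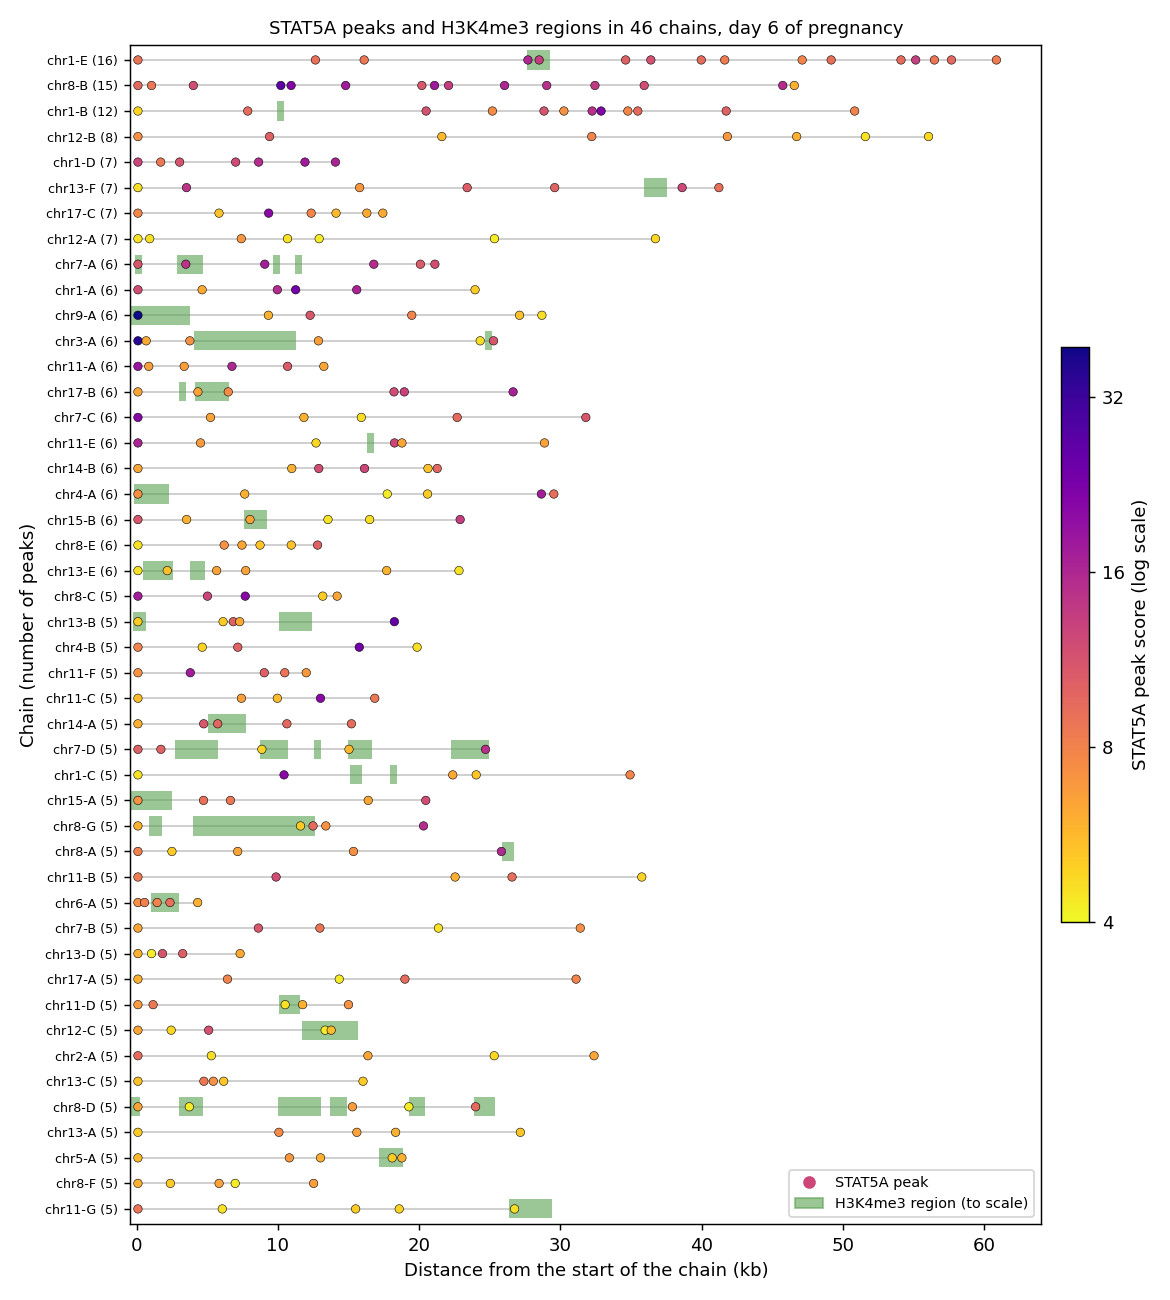
Each row is 1 chain, with STAT5A peaks as points at their distance from the start of the chain (kb), coloured by the authors' score on a log scale, and H3K4me3 regions as green bars drawn to scale. Rows run from the chain with most peaks (16) to those with 5, and 24 of the 46 rows hold a green bar.

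The largest chain by summed score was chr8-B, at chr8:19917509-19964175. Its 15 peaks had scores from 5.9 to 26.9 with a median of 13.8, and 13 of the other 14 scored 8.6 or more, with the last peak alone at 5.9. The highest peak was at chr8:19927620-19927834, and the next, with a score of 21.2, followed only 0.514 kb beyond it. Scores are the authors' own values per peak on a scale that no source names, and they are used here only to describe and rank peaks within this list. The chain summed to a score of 216.3, ahead of 161.9 in the chain that came next. No H3K4me3 region lay within its span, and the nearest region was 24.2 kb from its edge.

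The chain with the most peaks, chr1-E, was also the longest. It ran over chr1:90145583-90206551 with 16 peaks scoring from 7.8 to 15.9 (median 9.30). Its highest peak, at chr1:90173182-90173396, and the next along the chain, with a score of 13.5, both lay on the only H3K4me3 region of the chain, at chr1:90173250-90174850. That region had a score of 1100.1, the 37th highest of 14296 autosomal regions, although at 1601 bp it was 5000th in width. The other 14 peaks stood from 5.25 to 31.5 kb away from it. Its highest peak was 1.71 times the chain's median, close to the median of that ratio over the 46 chains.

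Only 23.0 kb before it lay chr1-D at chr1:90108413-90122606, with 7 peaks in 14.2 kb. Their scores ran along the chain as 12.7, 8.6, 11.3, 12.1, 15.4, 17.8 and 16.6, and the highest peak was at chr1:90120234-90120448. Every peak of chr1-D and chr1-E scored 7 or more, which held in only 4 of the 46 chains. Farther up the same chromosome, chr1-A (chr1:85071740-85095812) and chr1-B (chr1:85241561-85292498) were 146 kb apart. The 6 peaks of chr1-A had a median score of 13.6 and a maximum of 23.2 at chr1:85082902-85083116. The 12 peaks of chr1-B had a median of 9.45 and a maximum of 21.5 at chr1:85274339-85274553. H3K4me3 was distant from chr1-A, at 140 kb from its edge, while chr1-B held 1 region of 501 bp, the smallest width in the H3K4me3 list, with no STAT5A peak on it.

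In 5 places more than 1 chain lay within 1 Mb. Besides chr1-A with chr1-B and chr1-D with chr1-E, these were chr8-A to chr8-C, a trio with 25 peaks in 233 kb, chr11-F with chr11-G, and chr13-D with chr13-E. Together the 11 chains held 87 peaks with a median score of 9.4, against 6.7 for the 195 peaks of the 35 chains with no such neighbour. H3K4me3 regions carried 5 of these 87 (5.75%, 95% interval 1.89 to 12.9), against 26 of the 195 (13.3%, interval 8.90 to 18.9), with overlapping intervals. The high scores were not shared by all: the medians of the chromosome 8 and the 2 chromosome 1 groups were 12.7, 9.85 and 9.7, whereas chr11-F with chr11-G stood at 7.1 and chr13-D with chr13-E at 6.0. The 3 largest chains of all, chr1-E, chr8-B and chr1-B, were among the 11. Their 43 peaks had a median score of 10.2, and 2 of them lay on a region. In these 5 places chain size and a near neighbour therefore cannot be told apart. No track of repeated or hard-to-map sequence was used, so whether reads map uniquely in these places, the high-scoring ones included, was not tested.

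Among the other chains with most peaks, scores differed widely. In chr12-A (chr12:78280880-78317719), 6 of 7 peaks scored between 4.3 and 4.8, close to the lowest score in the list (4.3), and only the peak at chr12:78288196-78288410 reached 7.0. The 8 peaks of chr12-B (chr12:81913061-81969228) scored from 4.5 to 10.2, highest at chr12:81922377-81922591, and were widely set, at 1.42 peaks per 10 kb. In chr13-F (chr13:103647523-103688852) 7 peaks scored from 4.6 to 14.5, with the highest at chr13:103650959-103651173. In chr17-C (chr17:84795925-84813470) a single peak of 20.4, at chr17:84805175-84805389, stood among 6 others between 5.4 and 7.8. In chr7-A (chr7:38965050-38986279) every peak was strong: its 6 scores ran from 10.7 to 17.3, and the highest was at chr7:38974025-38974239. Thus many peaks in a chain did not always mean high ones.

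Some chains, chr17-C among them, had a single peak far above the others. In chr9-A (chr9:107198880-107227683) the peak at chr9:107198880-107199094 scored 39.0, the highest of all 282, while the other 5 scored 5.9, 11.1, 8.0, 5.4 and 4.6. That peak was 5.61 times the median of its chain and made up 52.7% of its summed score. It lay on an H3K4me3 region of 4239 bp at the start of the chain, chr9:107198444-107202682. In chr3-A (chr3:96355271-96380652) the peak at chr3:96355271-96355485 scored 34.9 against 4.6 to 11.1 in the other 5. In chr13-B (chr13:23545434-23563798) the peak at chr13:23563584-23563798 scored 25.9, or 4.18 times the median of its chain. No peak stood out as far in chr11-A (chr11:5399227-5412598). There the first peak, at chr11:5399227-5399441, scored 18.6, but the fourth came near it at 15.9. Over all chains the highest peak stood at 1.12 to 5.61 times the chain's median, with a median ratio of 1.71.

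The highest peak had no set place in a chain. It was the first or the last peak in 17 of 46 chains (37.0%, exact 95% interval 23.2 to 52.5), and end peaks made up 92 of the 282 peaks (32.6%), so the interval includes that share. The count took the first of equal peaks in chr13-E, the 1 chain with a tie. In chains of 6 the highest peak was at an end in 8 of 13 cases, where ends are 33.3% of peaks, and in none of the 8 chains with 7 or more, where ends are 12.5 to 28.6% of peaks. These are small numbers, and the intervals in this text are Clopper-Pearson intervals that cover counting error only.

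Peaks of the chains had higher scores than other autosomal peaks. Their median score was 7.4 with quartiles of 5.9 and 11.0, against 6.2 (5.1 and 8.6) in chains of 2 to 4 and 5.9 (4.9 and 7.6) in single peaks. Size by size there was little step at 5. The median was 6.4 in chains of 4, 6.7 in chains of exactly 5 and 6.75 in chains of 6. A score of 10 or more was reached by 87 of 282 (30.9%, interval 25.5 to 36.6), against 1128 of the 8453 other autosomal peaks (13.3%, 12.6 to 14.1). At 20 or more the counts were 13 of 282 (4.61%) and 103 of 8453 (1.22%). The very highest scores lay elsewhere, since the highest peak inside these chains scored 39.0 and the highest autosomal peak outside them 111.4. Position and score come from the same peak calls, and so this is a description and not an independent finding. Of the 46 chains, 12 had a peak of 20 or more and 12 had none as high as 10. Without the 3 largest chains, whose 43 peaks had a median of 10.2, the median of the rest was 6.8.

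**Figure D2:**
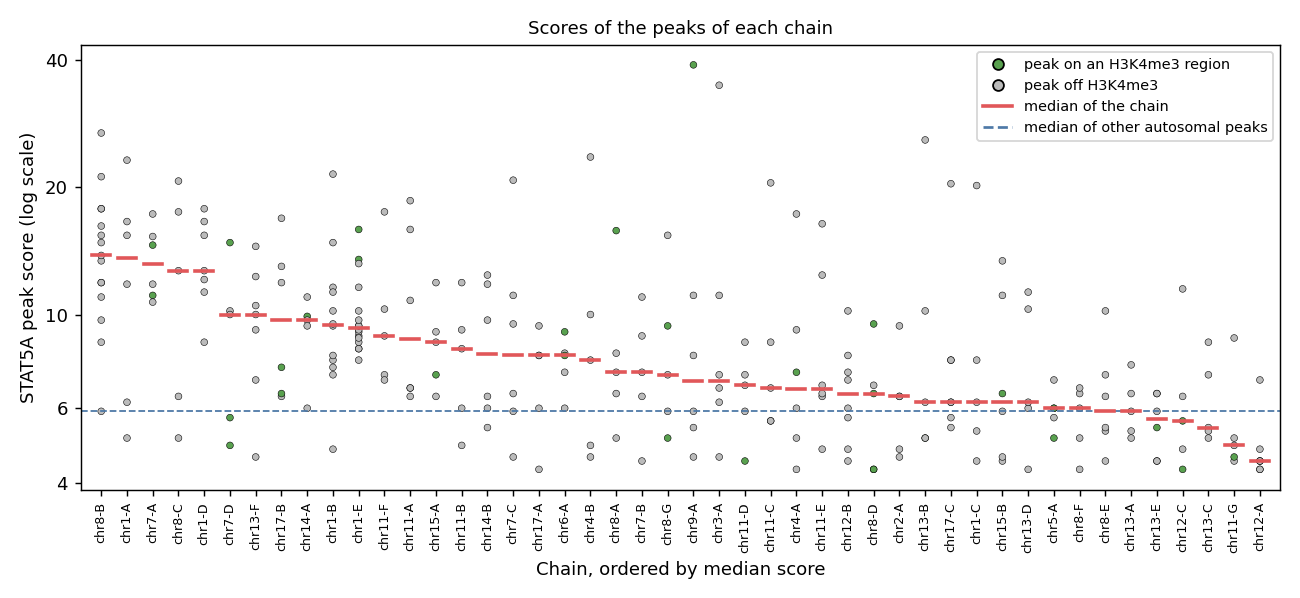
Scores of the 282 peaks on a log scale, 1 column per chain, ordered by the chain's median (red line). Green points lie on an H3K4me3 region, and the dashed line is the median of the other autosomal peaks, 5.9. The column medians run from 13.8 in chr8-B to 4.5 in chr12-A, and chr9-A and chr3-A each have 1 peak far above the others.

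H3K4me3 comes from another library and was not used to choose the peaks. Of the 282 peaks, 31 shared at least 1 bp with an H3K4me3 region (11.0%, interval 7.59 to 15.2). In the background of all autosomal peaks the share was 20.5%. It was 475 of 2596 (18.3%, 16.8 to 19.8) in chains of 2 to 4 and 1281 of 5857 (21.9%, 20.8 to 23.0) in single peaks. Among the smaller chains it was 13.0% in chains of 4, 14.3% in chains of 3 and 20.2% in pairs. Size by size the share did not fall steadily. It was 21 of 125 in chains of exactly 5 (16.8%, 10.7 to 24.5), above the chains of 4 and of 3, and 8 of 78 in chains of 6 (10.3%, 4.53 to 19.2). In the 8 chains of 7 or more it was 2 of 79 (2.53%, 0.308 to 8.85), and both of those peaks were in chr1-E. Peaks of 1 chain share their surroundings, and so these intervals are too narrow. Counting each chain once, the mean share was 12.3%.

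The lower share went together with higher scores, so the share was also taken within bands of score. Among peaks scoring under 6, 12 of 76 peaks of these chains lay on a region (15.8%, interval 8.43 to 26.0), against 1127 of 4240 other autosomal peaks (26.6%, 25.3 to 27.9). Between 6 and 10 it was 12 of 119 (10.1%, 5.32 to 17.0) against 530 of 3085 (17.2%, 15.9 to 18.6). At 10 or more it was 7 of 87 (8.05%, 3.30 to 15.9) against 99 of 1128 (8.78%, 7.19 to 10.6). In the first 2 bands the share of other peaks lay only just above the interval of the chains (26.6% against 26.0, and 17.2% against 17.0). The ends of the intervals overlapped there, and at 10 or more the share of other peaks lay within the interval of the chains. Peaks of the same chain share their surroundings, so the intervals of the chains are too narrow. They therefore cannot show whether chains and other peaks differ within a band. The differences were not tested.

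**Figure D3:**
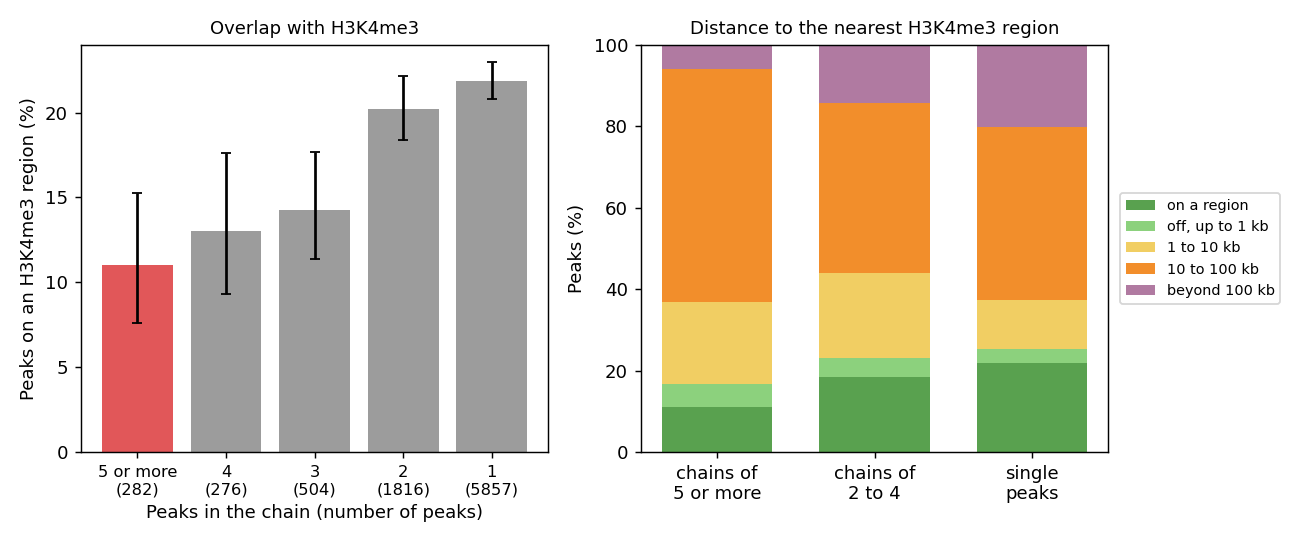
Left, share of STAT5A peaks that lie on an H3K4me3 region (%) by the number of peaks in their chain, with exact 95% intervals as bars and the number of peaks in parentheses. Right, distance to the nearest region as shares of peaks (%), where chains of 5 or more have most of their peaks (57.1%) between 10 and 100 kb. Large and small chains are pooled in that share.

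Although seldom on H3K4me3, peaks of these chains were also seldom very far from it. Their median distance to the nearest region was 16.4 kb (quartiles 4.28 and 40.1 kb), against 14.7 kb in chains of 2 to 4 and 22.6 kb in single peaks. Between 10 and 100 kb lay 161 of 282 (57.1%, interval 51.1 to 62.9), against 41.9% of peaks in chains of 2 to 4 and 42.4% of single peaks. Large chains weighed on that share. All 15 peaks of chr8-B stood 24.2 to 60.0 kb from a region, and all 8 of chr12-B 19.7 to 75.7 kb. In chains of exactly 5 the median distance was 12.7 kb and in chains of 6 it was 11.8 kb, against 13.7 kb in chains of 4. The 57.1% is therefore not a trait of chains of every size. Beyond 100 kb lay 17 of 282 (6.03%, 3.55 to 9.48), against 18.0% of all autosomal peaks. All 17 came from 4 chains, chr1-A, chr7-C, chr13-A and chr17-A, which is far fewer independent places than 17. Within 10 kb, counting those on a region, were 104 of 282 (36.9%, 31.2 to 42.8), close to the 39.2% of all autosomal peaks.

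Some peaks of these chains bordered a region without touching it. Off a region but no more than 1 kb from one were 16 of 282 (5.67%, interval 3.28 to 9.05), in 11 chains, at a median of 399 bp. Other autosomal peaks did so in 3.92% of cases (3.51 to 4.35), within that interval. The clearest example was chr3-A. It held a region of 7194 bp at chr3:96359357-96366550, the 14th widest and 4th highest of all autosomal regions, yet none of its 6 peaks lay on it. The third peak ended 195 bp before that region, and its last stood 30 bp from a small region of 501 bp.

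Chains as units were divided in their relation to H3K4me3. A region lay at least in part within the span of 24 of 46 chains (52.2%, interval 36.9 to 67.1), and at least 1 peak was on a region in 19 (41.3%, 27.0 to 56.8). For chains of 4, whose median span was 13.8 kb, 29 of 69 held a region (42.0%, 30.2 to 54.5), and a longer span has more room for one. The 24 chains held 148 peaks and had a median span of 24.5 kb. The 22 without a region held 134 peaks, with a median span of 20.7 kb. The medians of the chains' median scores were 6.95 with a region and 7.55 without, whereas the medians of their highest scores ran the other way, at 15.1 with a region and 12.15 without. Of the 22, 4 had a region within 10 kb of an edge, 7 were more than 50 kb from any, and 2, chr1-A and chr13-A, were 140 and 252 kb away. The 5 peaks of chr13-A (chr13:12995261-13022540) scored only 5.1 to 7.6.

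The highest peak of a chain was on a region in 6 of the 24 chains with one (25%, interval 9.77 to 46.7). Of all 148 peaks in those chains 31 were on a region (20.9%), which lies within that interval. These were chr1-E, chr6-A, chr7-D, chr8-A, chr8-D and chr9-A. The 31 peaks on a region had a median score of 6.5 (quartiles 5.1 and 9.7), against 7.8 (5.9 and 11.1) for the 251 off it. End peaks were on a region in 12 of 92 cases (13.0%, 6.93 to 21.7) and inner peaks in 19 of 190 (10.0%, 6.13 to 15.2), with overlapping intervals.

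A few chains were rich in H3K4me3. In chr8-D (chr8:87489874-87513985) 4 of 5 peaks lay on regions and the fifth stood 268 bp from one, and the span held 6 regions that covered 31.5% of it. The scores of chr8-D were low, between 4.3 and 9.5. In chr7-D (chr7:148637998-148662815) 3 of 5 peaks lay on regions, 5 of which covered 39.2% of the span. The shortest and densest chain, chr6-A (chr6:47598724-47603167), put 5 peaks scoring 6.0 to 9.1 into 4.44 kb around a region of 2032 bp, and 2 of them lay on it, the highest at chr6:47600992-47601206. In chr8-G (chr8:129106877-129127302) a region of 8612 bp, the 7th widest on the autosomes, held 2 peaks with scores of 5.1 and 9.4, while the highest peak, 15.4 at chr8:129127088-129127302, was 7.60 kb outside it.

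**Figure D4:**
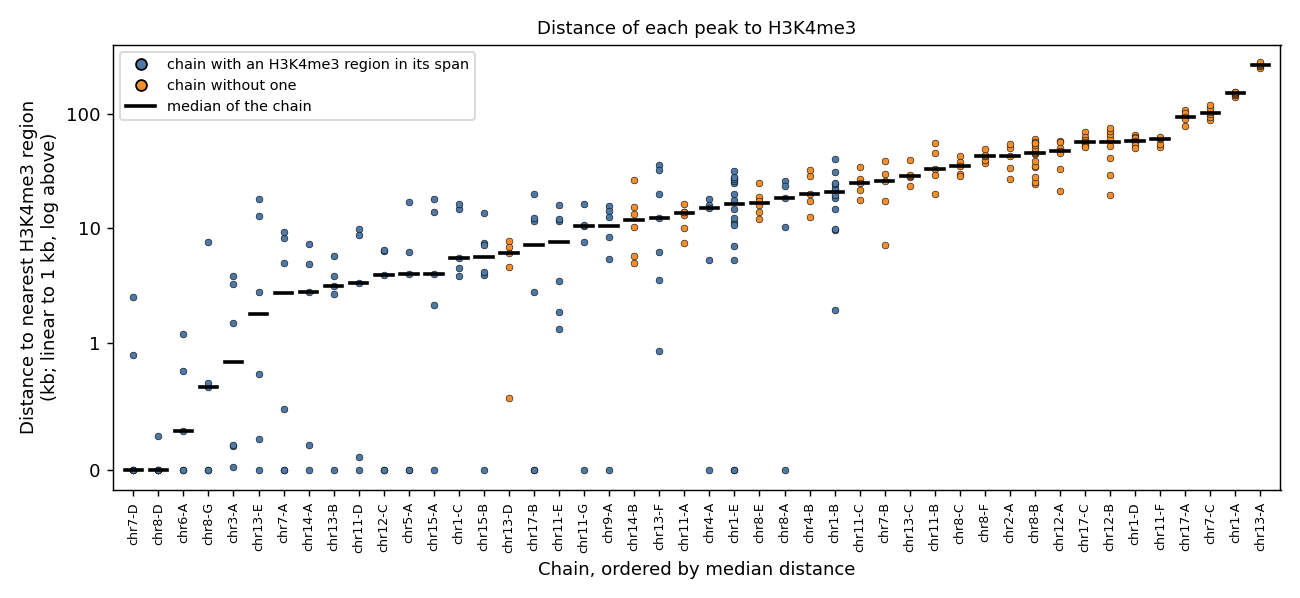
Distance of each of the 282 peaks to the nearest H3K4me3 region (kb, linear to 1 kb and log above), 1 column per chain ordered by the chain's median (black line). Chains with a region in their span are blue and those without are orange. The median of chains runs from 0 in chr7-D and chr8-D to 268 kb in chr13-A.

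The spans held 42 H3K4me3 regions, which covered 6.34% of their length, against 0.84% of the rest of the autosomes. Per megabase this was 36.3 regions in spans and 5.77 elsewhere, while STAT5A peaks numbered 244 and 3.42 per megabase by the choice of chains. The cover was uneven: regions covered 0.68% of the span in the median chain, and 22 of the 46 chains held none. Pooled values therefore rest on a part of the chains, and the surroundings of other STAT5A peaks were not measured this way. Smaller chains held regions in short spans too. Of 908 pairs, with a median span of 4.95 kb, 313 held a region (34.5%), as did 29 of 69 chains of 4, with a median span of 13.8 kb. A richness in regions is therefore not shown to be particular to chains of 5 or more. Of the 42 regions, 15 were wider than 2 kb (35.7%, interval 21.6 to 52.0), against 19.4% of all autosomal regions. A wide region is more likely to reach into any span, and that was not corrected for. At the other extreme 9 of 42 had the minimum width of 501 bp (21.4%, 10.3 to 36.8), against 10.8% of regions elsewhere. Their median width was 1636 bp, against 1323 bp elsewhere. A STAT5A peak lay on 25 of the 42, of median width 1899 bp, while the 17 without one had a median width of 843 bp. Spans end at peaks, so a region that reaches past an end must touch the end peak. A wider region is also more likely to touch any peak, and neither was corrected for. Each of 6 regions carried 2 peaks or more.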

How the data were processed

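ChIP-seq of STAT5A and of H3K4me3 in P6 tissue was analysed, 1 library each. Per the submitters' processing notes, CASAVA, Bowtie and HOMER were used with mm9. The sources used here do not give versions, peak settings or whether an input was used. Each deposited list gives positions and a score per peak or region, and the scale of the score is not stated. No depth is given. The members and the settings were chosen with earlier results of these data known. Peaks were sorted, joined at gaps of up to 12.5 kb and kept in chains of 5 or more. Distance is the number of bases between peak and region, and 1 shared bp counted as overlap. Chains named are the 10 with most peaks, the 10 with the highest summed score, the longest, the shortest, the densest and the one with the widest region; others were named after their values were seen. The functions were tested on simulated data. The expression table was not used because its loci carry no coordinates. Python 3.11.15, pandas 2.3.3, numpy 2.4.6 and scipy 1.17.1 were used.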

Additional observations from a re-analysis of the deposited data

How the results depend on the processing

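The choice of chains decides how many peaks are described. Against 282 peaks in 46 chains, a gap of 5 kb left 66 in 11 and one of 25 kb gave 625 in 97. Chains of 4 or more gave 558 in 115 and chains of 6 or more 157 in 21, while a score minimum of 5 left 178 in 28 and one of 6 left 112 in 16. The share on H3K4me3 (11.0%) was below that of other autosomal peaks under all 15 alternatives. It ran from 4.55% at a gap of 5 kb to 16.7% when a peak within 1 kb counted as on. With chains of 6 or more it was 6.37%. Where each chain counted once, here and for distance and score, other peaks were still counted singly. In the band of scores of 10 or more, not among the 15, the shares were close, at 8.05% and 8.78%. The median distance (16.4 kb) was below that of other autosomal peaks under all 14, but chains of 2 to 4 alone stood nearer, at 14.7 kb. It was 22.4 kb, near the 22.7 kb of other peaks, without regions of minimum width. Without chains that had another within 1 Mb it was 13.5 kb. Bands of score, not among the 14, differed: under 6 the median was 17.1 kb against 14.5 kb in other peaks. From 6 to under 10 it was 15.6 against 23.8 kb, and at 10 or more 17.9 against 27.0 kb. The median score (7.4) was above that of other peaks under all 12. It was 9.45 with a 5 kb gap, 6.8 with 25 kb, 8.6 with chains of 6 or more, 8.9 and 10.1 with score minimums of 5 and 6, 6.7 without chains that had another within 1 Mb and 6.8 without the 3 largest chains. With a 5 kb gap 18.2% of chains held a region and 18.2% had their highest peak at an end. The alternatives without neighbouring chains and without the 3 largest were chosen after seeing the data. The motif search and the levels of genes at the chains, both planned, were not run. No paired analysis was possible because each assay had 1 library. Unknown depth limits which weak peaks could join a chain.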

Other observations

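On the X chromosome, which the selection leaves out, 1 chain met the same limits. It lay at chrX:166407687-166445094 with 8 peaks, of which 1 was on an H3K4me3 region. Scores there lay between 7.5 and 25.6 (median 10.5), and no peak was more than 8.61 kb from a region.

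A pair of H3K4me3 regions in the chains had unusually high scores for their width, which was looked at after the values were seen. The region at the end of chr8-A, chr8:19784563-19785454, had a score of 813.5 in 892 bp, or 912 per kb, the 2nd highest of 14296 autosomal regions. The region in chr1-E came 6th, at 687 per kb. Both lay in places with several chains, and each overlapped a part of the highest STAT5A peak of its chain. Of the 215 bp of that peak, 98 bp were shared in chr8-A and 147 bp in chr1-E. Whether the 2 assays share a source of signal there was not tested.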
